A study of Mus musculus with 9 samples.

Results

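The 10 genes described here encode condensin I, condensin II and the core of the SMC5/6 complex, the chromosome-organizing complexes that are built, like cohesin, around a pair of SMC ATPases. They were taken by symbol from the table of read counts, and each symbol matched 1 of its 41128 genes. Smc2 and Smc4 encode the SMC pair shared by both condensins, Ncapd2, Ncapg and Ncaph the remaining subunits of condensin I, Ncapd3, Ncapg2 and Ncaph2 those of condensin II, and Smc5 and Smc6 the SMC pair of the SMC5/6 complex. All 10 passed edgeR's filter on low counts and were among the 14057 genes tested.

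RNA was sequenced from lymphomas of 3 Bcl6 mice (Smc3 wt/wt;Cγ1 wt/cre;IµBcl6) and 6 Smc3/Bcl6 mice (Smc3 wt/-;Cγ1 wt/cre;IµBcl6), with 1 library per tumor. Both genotypes carry Cγ1-Cre, which is switched on as B cells enter the germinal center, and the IµBcl6 transgene, which keeps the transcriptional repressor Bcl6 expressed in B cells, so that the groups differ in a single Smc3 allele. Smc3 is the cohesin partner of Smc1a. By their labels, replicate 1 of either genotype came from the mesenteric lymph node and all other tumors from a lymph node, whereas the study's text names the mesenteric lymph node for both genotypes. Values that use this label may therefore not reflect a difference in tissue. The age of the mice is not given in the sources used here. The comparison asks whether expression of these genes differed with the loss of 1 Smc3 allele, and how it varied with cell-cycle genes across the 9 tumors.

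Condensins compact chromosomes by extruding loops of DNA. Condensin II is nuclear throughout the cell cycle and begins compaction in prophase, whereas condensin I reaches chromosomes once the nuclear envelope has broken down, and the kleisin subunits (Ncaph and Ncaph2) close each ring. The SMC5/6 complex acts in DNA repair and replication, and carries a SUMO ligase and a ubiquitin ligase among its non-SMC subunits. Germinal center B cells and the lymphomas that arise from them divide fast, and genes of mitosis are often controlled through the cell cycle genes homology region (CHR), a short promoter element bound by the DREAM and MuvB complexes.

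The promoters are shown because some of these genes had a positive correlation with mitosis genes across the tumors, although none passed after adjustment over all genes. Promoters of 9 of the 10 genes were found in RefSeq (GRCm38.p6), 250 bases before to 50 after the start of the transcript, and none was found for Smc4. Where a gene had more than 1 promoter, as Ncapd3 did, the first listed was used. TTTGAA or TTCGAA, the letters searched for a CHR on both strands, occurred in 6 of the 9 promoters, against 19.2% of 32851 promoters of the same length (19.4% of the first listed promoters of 27025 genes), and in 13 of the 17 first listed promoters found for the genes of a mitosis list described with the relation to mitosis. From 130 bases before to 30 bases after the start they occurred in 5 of 9, against 9.77% of all promoters. Those windows of Ncapg, Ncapd2, Ncapg2, Ncaph2 and Smc6 hold a match, in capitals, whereas the window of Ncaph, which varied most closely with the mitosis genes, holds none.
Ncapg, chr5:45669795-45669954 (+ strand): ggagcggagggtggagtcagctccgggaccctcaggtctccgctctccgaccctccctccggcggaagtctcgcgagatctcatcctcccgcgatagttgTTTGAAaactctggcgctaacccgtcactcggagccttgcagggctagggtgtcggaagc
Ncapd2, chr6:125191557-125191716 (- strand): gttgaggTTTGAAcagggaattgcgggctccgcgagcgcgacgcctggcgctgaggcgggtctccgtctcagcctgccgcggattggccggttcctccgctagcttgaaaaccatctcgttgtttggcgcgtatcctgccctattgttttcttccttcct
Ncapg2, chr12:116405306-116405465 (+ strand): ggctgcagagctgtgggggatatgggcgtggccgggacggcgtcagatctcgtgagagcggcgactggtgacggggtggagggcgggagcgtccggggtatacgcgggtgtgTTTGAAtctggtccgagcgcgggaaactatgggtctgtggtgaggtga
Ncaph2, chr15:89355589-89355748 (+ strand): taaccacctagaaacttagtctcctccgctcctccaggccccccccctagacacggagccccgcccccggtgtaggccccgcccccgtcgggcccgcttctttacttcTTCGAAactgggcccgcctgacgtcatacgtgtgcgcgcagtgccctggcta
Smc6, chr12:11265756-11265915 (+ strand): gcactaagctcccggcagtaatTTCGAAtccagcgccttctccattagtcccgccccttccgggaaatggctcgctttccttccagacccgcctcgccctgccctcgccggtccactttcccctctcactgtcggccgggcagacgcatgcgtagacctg
Ncaph, chr2:127133925-127134084 (- strand): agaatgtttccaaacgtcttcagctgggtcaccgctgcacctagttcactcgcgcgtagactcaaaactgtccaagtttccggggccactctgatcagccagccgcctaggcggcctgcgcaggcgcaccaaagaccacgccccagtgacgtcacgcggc
The match begins at position -30 in Ncapg, -18 in Ncapg2 and -22 in Ncaph2, close to the start of the transcript, but at -123 in Ncapd2 and -108 in Smc6, counted so that the base just before the start is -1. CCAAT, searched on both strands as the box that often accompanies a CHR, was present in this window in Smc2 and Ncapd2, or 2 of 9 promoters, against 25% of all promoters and 14 of the 17 promoters of mitosis genes. The second promoter of Ncapd3 holds a match as well, outside the shorter window. A match of 6 letters is not evidence of a bound site.

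Before the levels of the members are given, 1 library has to be described. Total counts ranged from 10156728 to 16898438 in the Bcl6 tumors and from 11618983 to 17774577 in the Smc3/Bcl6 tumors. In Smc3/Bcl6 tumor 2, genes with long exons were low relative to the other tumors, with a Spearman correlation of -0.466 across genes between exon length and the deviation of log2 CPM from the mean of the other tumors, whereas the same correlation lay between -0.0303 and 0.273 in the other 8. CPM (counts scaled to a common library size by TMM) are used for levels throughout. The length of the exons tested had a median of 4091 bases, and that of the members ranged from 4198 bases for Ncaph2 to 12502 bases for Smc6. Of the 10 members, 8 lay below the mean of the other tumors in this library, against 52.2% of the genes tested. The median deviation was -1.14 on the log2 scale against -0.09 for all genes. The log2 fold change of each member is therefore given with and without this library. Those of all other genes are given with it only. Markers of B cells summed to 2561 to 8264 CPM in Bcl6 tumors and to 4574 to 10511 CPM in Smc3/Bcl6 tumors, and all 7 were counted. The tissue was thus mixed, since T-cell markers summed to 289, 2423 and 1770 CPM in the Bcl6 tumors and to 83.3 to 2223 CPM in Smc3/Bcl6 tumors, and in such bulk samples fewer cells of a type and less RNA per cell cannot be told apart. Smc3 itself was counted at 126, 99.5 and 88.1 CPM in the Bcl6 tumors, and 27.9, 106 and 111 CPM as the lowest, median and highest value of the Smc3/Bcl6 tumors. The lowest was that of Smc3/Bcl6 tumor 2. The other 5 started at 89.7 CPM and averaged 104 CPM, against 104 CPM in the Bcl6 tumors. Between genotypes the log2 fold change of Smc3, with tumor 2 included, was -0.19. Its standard error (SE) was 0.38, with a Benjamini-Hochberg adjusted p of 1 by edgeR's quasi-likelihood method. The groups overlapped, so that these counts of the targeted gene did not separate the genotypes. The study, by contrast, reports that Smc3 expression was reduced in Smc3/Bcl6 tumors, with RT-qPCR of Smc3 mRNA normalized to Hprt1. That assay covered fewer Smc3/Bcl6 tumors than were sequenced, and is a different measure from read counts over the whole gene.

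By genotype, 9 of the 10 members had a negative log2 fold change (Smc3/Bcl6 minus Bcl6), as did 42.6% of all genes tested, and their median was -0.43 against 0.06 for all genes. At the thresholds used in the study, a log2 fold change beyond 0.56 in either direction at an unadjusted p below 0.1, 3 members were called lower in Smc3/Bcl6 tumors, Smc2, Ncapg and Ncaph, against 0.868% of the 14057 genes tested. None was called higher, against 1.28% of the genes tested. At these thresholds the study reports more genes down than up in Smc3/Bcl6 tumors, whereas here fewer were called lower than higher. After Benjamini-Hochberg adjustment 0 members and 0 genes in all passed 0.05, with an adjusted p of 1 for every member, while 1 member and 79 genes (0.562%) had an unadjusted p below 0.05. DESeq2 likewise gave 0 members at an adjusted p below 0.05. The groups overlapped for all 10 members. Without Bcl6 tumor 1, which was highest in 6 of the 10, 0 members were called, against 1.64% of genes called lower. Without Smc3/Bcl6 tumor 2 the same 3 members were called, against 1.39% of genes. Bcl6 tumor 1 is also 1 of the 2 labelled mesenteric lymph node, and with the tissue label as a covariate 1 member was called, Ncapg (log2 fold change -0.58, unadjusted p = 0.0568 and adjusted p = 1 in edgeR), against 1.37% of genes called lower. The genotype difference could not be tested within the mesenteric lymph node label, which holds 1 tumor of each genotype.

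**Figure D1:**
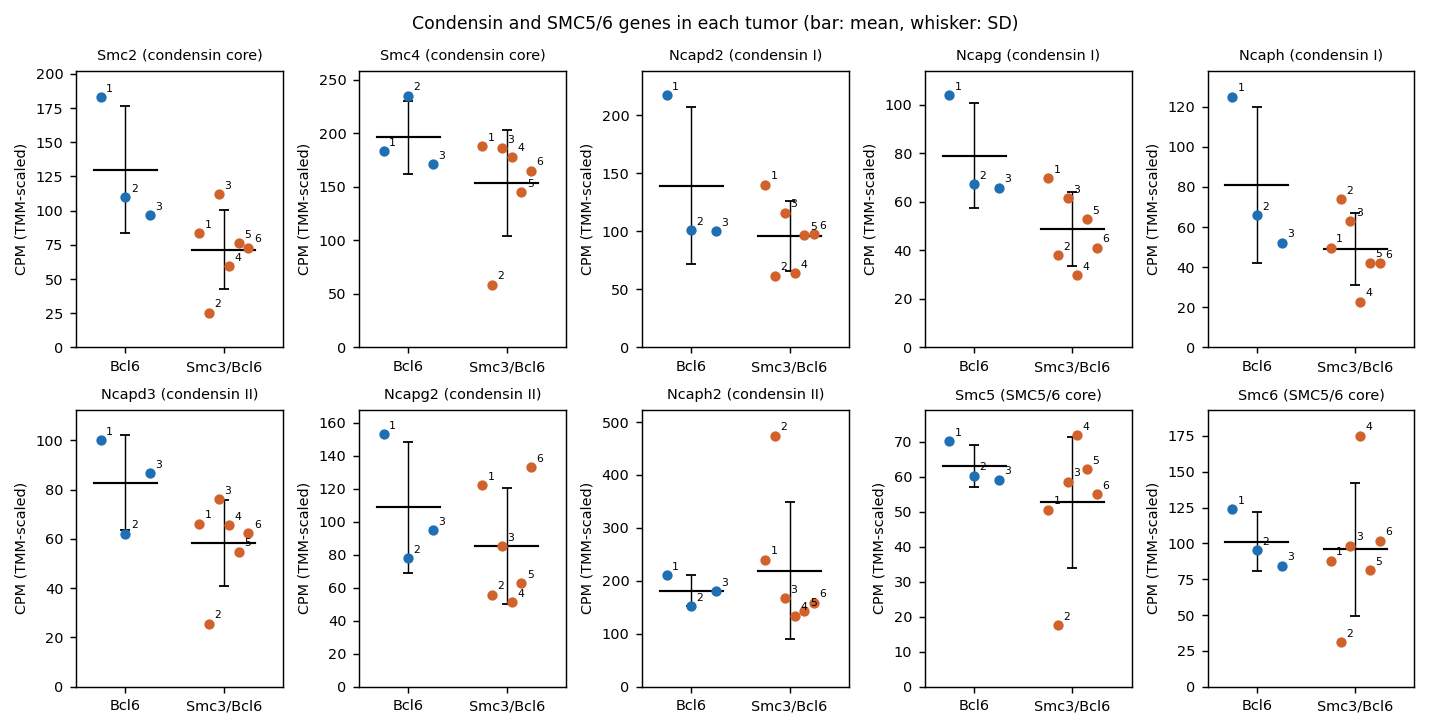
TMM-scaled CPM (y axis, linear, from 0) of each condensin and SMC5/6 gene by genotype, 1 point per tumor numbered by replicate, with the mean (bar) and SD (whisker) of 3 Bcl6 and 6 Smc3/Bcl6 tumors. Bcl6 tumor 1 stands highest in 6 of 10 panels and Smc3/Bcl6 tumor 2 lowest in 6 of 10, whereas Smc3/Bcl6 tumor 2 is highest for Ncaph2 at 474 CPM.

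Smc2 and Smc4, the SMC pair of both condensins, did not follow each other closely. Smc2 (ENSMUSG00000028312.14, chr4:52439243-52488260 on the + strand of GRCm38) had 183, 110 and 96.6 CPM in the Bcl6 tumors (1 to 3), and 25.4, 74.5 and 112 CPM as lowest, median and highest value in Smc3/Bcl6 tumors. Only Smc3/Bcl6 tumor 3, at 112 CPM, exceeded a Bcl6 tumor, so that the groups overlapped. Bcl6 tumors averaged 130 ± 46.3 CPM (SD, n = 3), and the Smc3/Bcl6 tumors 71.6 ± 28.6 (SD, n = 6). With a log2 fold change of -0.86 (SE 0.40, 95% interval -1.74 to 0.03), its unadjusted p was 0.056 in edgeR. Exact permutation of the genotypes over the 84 splits of the tumors gave a two-sided p of 0.0952 for log2 CPM. A p from this test cannot be smaller than 1 split in 84. Smc2 had a log2 fold change of -0.66 when Smc3/Bcl6 tumor 2 was left out. Its call was lost without Smc3/Bcl6 tumor 4 (log2 fold change -0.79, unadjusted p = 0.1 in edgeR) as well as without Bcl6 tumor 1 (-0.58). Smc4 (ENSMUSG00000034349.9, chr3:69004738-69034623, + strand) had 183, 235 and 171 CPM in Bcl6 tumors and 58.4, 171 and 188 CPM as lowest, median and highest value in Smc3/Bcl6 tumors. Apart from Smc3/Bcl6 tumor 2, which was lowest, the Smc3/Bcl6 tumors lay between 145 and 188 CPM and overlapped the Bcl6 tumors. The log2 fold change of Smc4 was -0.35 (SE 0.34), or -0.17 without that tumor.

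Condensin I held both other calls. Ncapg, which encodes a HEAT-repeat subunit (ENSMUSG00000015880.9, chr5:45669919-45700546, + strand), had 104, 67.4 and 65.9 CPM in Bcl6 tumors, and 29.9, 46.9 and 69.8 CPM as lowest, median and highest value in Smc3/Bcl6 tumors. Smc3/Bcl6 tumor 1 was the only one of the 6 to exceed a Bcl6 tumor. The log2 fold change was -0.69 (SE 0.30, 95% interval -1.37 to -0.02), with an unadjusted p of 0.0448 in edgeR and 0.0595 in the exact permutation test. Ncapg was called without any 1 tumor except Bcl6 tumor 1, where its log2 fold change was -0.51, and it stood at -0.61 without Smc3/Bcl6 tumor 2. Ncaph, the kleisin of condensin I (ENSMUSG00000034906.10, chr2:127103809-127133954, - strand), had 125, 65.8 and 52.2 CPM in Bcl6 tumors, and 22.7, 46 and 74 CPM in Smc3/Bcl6 tumors. Here Smc3/Bcl6 tumor 2 was not low but the highest of its group, and tumors 2 and 3 of that group overlapped the Bcl6 tumors. The log2 fold change of Ncaph was -0.73 (SE 0.38, 95% interval -1.58 to 0.13, unadjusted p = 0.0874 in edgeR), or -0.85 without Smc3/Bcl6 tumor 2. DESeq2 gave -0.67 (unadjusted p = 0.113, adjusted p = 1) and RLE scaling in edgeR the same value (unadjusted p = 0.104), so that Ncaph was not called by either. Without Bcl6 tumor 1 it was -0.34, and its call was also lost without Smc3/Bcl6 tumor 1 (-0.73, unadjusted p = 0.117), 5 (-0.69, 0.136) or 6 (-0.68, 0.137) in edgeR. Ncapd2, the other HEAT-repeat subunit (ENSMUSG00000038252.8, chr6:125168007-125191701, - strand), had 217, 101 and 99.8 CPM in Bcl6 tumors, and 61.9, 97.1 and 140 CPM in Smc3/Bcl6 tumors. Bcl6 tumor 1 stood above all others and the remaining tumors overlapped. Its log2 fold change was -0.54 (SE 0.35, 95% interval -1.32 to 0.24), or -0.12 without Bcl6 tumor 1 and -0.41 without Smc3/Bcl6 tumor 2, and without Smc3/Bcl6 tumor 1 it was called lower (-0.67, unadjusted p = 0.0873 in edgeR). The exons of Ncapg overlap those of Lcorl, on the opposite strand, over 944 bases (13.4% of the exon bases of Ncapg), and Lcorl had 3219 counts in all against 7398 for Ncapg. The strand setting of the counting is not given in the sources used here, so reads in that stretch cannot be told apart.

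None of the 3 condensin II subunits was called, and they differed in direction. Ncapd3 (ENSMUSG00000035024.10, chr9:27030175-27095315, + strand), the condensin II counterpart of Ncapd2, had 100, 62 and 86.5 CPM in Bcl6 tumors, and 25.6, 63.9 and 76.1 CPM in Smc3/Bcl6 tumors. The groups overlapped through Bcl6 tumor 2. Its log2 fold change was -0.50 (SE 0.32, 95% interval -1.22 to 0.21), and -0.34 without Smc3/Bcl6 tumor 2. Ncapg2 (ENSMUSG00000042029.6, chr12:116405402-116463731, + strand), the counterpart of Ncapg, had 153, 77.9 and 94.8 CPM in Bcl6 tumors, and 51.3, 73.9 and 133 CPM in Smc3/Bcl6 tumors. Smc3/Bcl6 tumors 1 and 6, with 122 and 133 CPM, exceeded 2 of the 3 Bcl6 tumors. The log2 fold change was -0.35 (SE 0.37, 95% interval -1.18 to 0.48) and -0.09 without Bcl6 tumor 1 or -0.23 without Smc3/Bcl6 tumor 2. Ncaph2 (ENSMUSG00000008690.10, chr15:89355719-89372826, + strand), the kleisin of condensin II, was the only member with a positive log2 fold change. It had 211, 152 and 181 CPM in Bcl6 tumors, and 134, 163 and 474 CPM in Smc3/Bcl6 tumors. The highest value was that of Smc3/Bcl6 tumor 2, and without it the sign turned, from 0.28 (SE 0.42) to -0.09 (SE 0.21). Exons of Ncaph2 overlap Tymp over 535 bases and Sco2 over 829 bases on the opposite strand, but these had only 169 and 0 counts in all.

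Smc5 and Smc6 showed the smallest log2 fold changes of the 10 members. Smc5 (ENSMUSG00000024943.8, chr19:23206451-23273897, - strand) had 70.1, 60.3 and 59.2 CPM in Bcl6 tumors, and 17.6, 56.8 and 71.9 CPM in Smc3/Bcl6 tumors. Smc6 (ENSMUSG00000020608.6, chr12:11265886-11319785, + strand) had 124, 95.1 and 84.5 CPM in Bcl6 tumors, and 31.2, 93.3 and 175 CPM in Smc3/Bcl6 tumors. For both genes the lowest value was that of Smc3/Bcl6 tumor 2 and the highest that of Smc3/Bcl6 tumor 4, the tumor in which Ncapg, Ncaph, Ncapg2 and Ncaph2 were lowest. The log2 fold change of Smc5 was -0.26 (SE 0.37, 95% interval -1.08 to 0.55), and that of Smc6 was -0.07 (SE 0.42, 95% interval -1.02 to 0.87). Without Smc3/Bcl6 tumor 2 they were -0.07 and 0.13, with standard errors of 0.15 and 0.26.

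**Figure D2:**
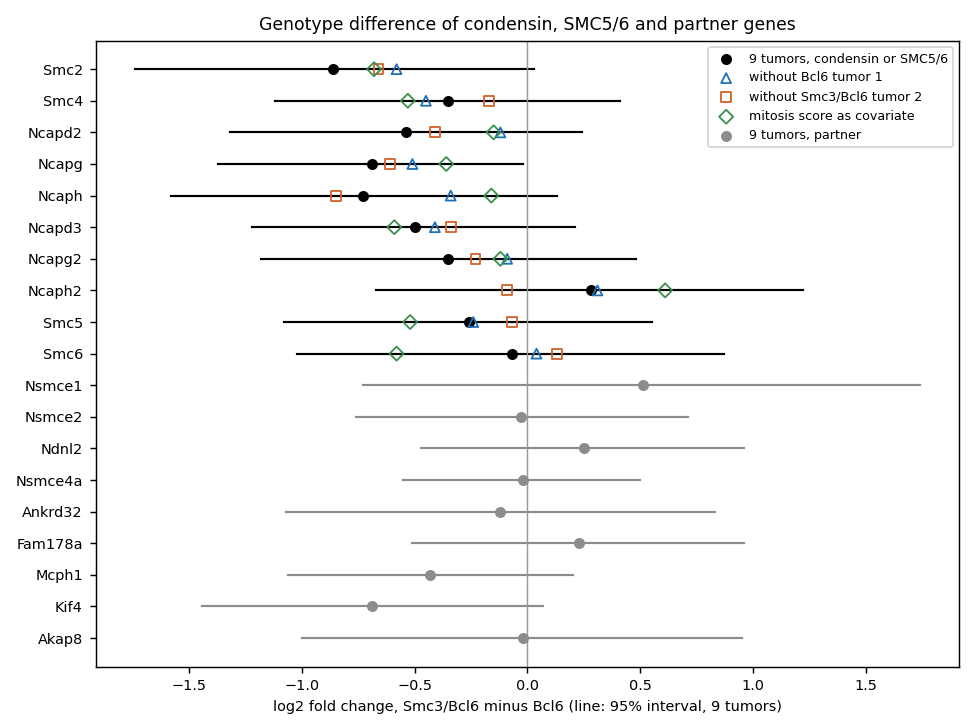
Log2 fold change (x axis, Smc3/Bcl6 minus Bcl6) with its 95% interval from 9 tumors for the 10 condensin and SMC5/6 genes (black) and 9 partner genes (gray), with values of the 10 without Bcl6 tumor 1 (triangles), without Smc3/Bcl6 tumor 2 (squares) and with the mitosis score as a covariate (diamonds). Only the interval of Ncapg (-1.37 to -0.02) lies wholly below 0, and with the mitosis score as a covariate its value is -0.36.

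Among 9 partner genes, 1 was called lower, none higher, and 6 had a negative log2 fold change, with a median of -0.02 over the 9. Of all genes tested, 0.868% were called lower, 1.28% higher, and 42.6% had a negative log2 fold change. Eid3 was not found in the table. The gene called was Kif4, a chromokinesin that works with condensin I, with 50, 27.8 and 35.7 CPM in Bcl6 tumors and 16.8, 19.1 and 35.8 CPM as lowest, median and highest value in Smc3/Bcl6 tumors. Its groups overlapped only through Smc3/Bcl6 tumors 1 and 3, and the log2 fold change was -0.69 (SE 0.34, unadjusted p = 0.0711 and adjusted p = 1 in edgeR). Mcph1, an inhibitor of condensin II, had a log2 fold change of -0.43 (SE 0.28). Akap8, an anchoring protein of mitotic chromatin, had -0.02 (0.44). The non-SMC subunits of SMC5/6 lay on both sides of 0, from -0.03 for Nsmce2, the SUMO ligase, and -0.02 for Nsmce4a to 0.25 for Ndnl2 (Nsmce3) and 0.51 for Nsmce1. Nsmce1 was highest in Smc3/Bcl6 tumor 2, at 371 CPM, where its exons of 1329 bases were the shortest of the partners. The loading factors Ankrd32 (Slf1) and Fam178a (Slf2) had -0.12 and 0.23. The cohesin ring (Smc1a, Smc3, Rad21, Stag1 and Stag2) gave 0 calls among 5 genes, against the same shares of all genes. Its log2 fold changes ran from -0.64 for Smc1a to 0.08 for Stag2.

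Genes that mark dividing cells were counted in the same way. Of 20 mitosis genes, 4 were called lower and none higher, with a median log2 fold change of -0.41 and 17 negative values. For this list and the replication list below, the shares of all genes tested were 0.868% lower, 1.28% higher and 42.6% negative. Top2a, the topoisomerase that decatenates chromosomes alongside condensin, had 444, 259 and 248 CPM in Bcl6 tumors and 79.9, 175 and 245 CPM in Smc3/Bcl6 tumors. Its groups did not overlap, which held for 0.199% of the genes tested in this direction, and its log2 fold change was -0.96 (SE 0.40, adjusted p = 1 in edgeR). The others called were the kinase Bub1 (-1.04), the kinesin Cenpe (-0.90) and the spindle factor Tpx2 (-0.61). The highest value in the list was 0.73 for Bub1b, which had 941 CPM in Smc3/Bcl6 tumor 5 and 34.4 to 191 CPM in the other tumors. Of 20 replication genes, Pola1 (-0.63) and Lig1 (-0.64), the catalytic subunit of DNA polymerase alpha and a DNA ligase of replication, were called lower, 18 were negative, and the highest value was 0.35 for Fen1.

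To relate the members to proliferation, log2 CPM of the 20 mitosis genes were averaged into a mitosis score for each tumor. None of the 10 members is in this score. It was 6.94, 6.19 and 6.03 in Bcl6 tumors 1 to 3, and 6.17, 6.37, 6.07, 4.70, 6.10 and 5.51 in Smc3/Bcl6 tumors 1 to 6. Bcl6 tumor 1 was highest and Smc3/Bcl6 tumor 4 lowest, and the remaining 7 tumors lay between 5.51 and 6.37. The score of Smc3/Bcl6 tumor 2 averages genes that went opposite ways in that library. Ube2c (366 CPM) and Cdk1 (291 CPM) were higher there than in any other tumor, whereas Mki67 (53.5 CPM) and Cenpe (12.9 CPM) were lower. After correction for exon length and GC content its score was 6.50. The difference of the mitosis score between genotypes was -0.56 (exact two-sided permutation p = 0.25), and that of a score of the 20 replication genes was -0.39 (p = 0.25 in the same exact test). Erythroid markers were at 21 CPM in Bcl6 tumor 1, the lowest of all tumors, and at 5354 CPM in Smc3/Bcl6 tumor 4, the highest, so the extremes of the score were also extremes in red-cell RNA, and the part this had in the relations was not tested.

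Among the members, the largest correlations with the mitosis score were those of 2 condensin I subunits. Over 9 tumors Pearson's r was 0.94 for Ncaph (exact permutation p = 0.00054) and 0.80 for Ncapg (exact permutation p = 0.0102). These 2 of 10 members had a positive r with an unadjusted p below 0.05, against 6.28% of 14037 genes outside the score, and 0 had a negative one, against 3.91%. After Benjamini-Hochberg adjustment over those genes the exact p was 0.149 for Ncaph and 0.346 for Ncapg, and 0 genes in all passed 0.05. Spearman's rho was 0.87 for Ncaph (exact permutation p = 0.00451, adjusted 0.101) and 0.57 for Ncapg (exact permutation p = 0.121, adjusted 0.413). Ncapd2, with an r of 0.65 (exact permutation p = 0.0676), Ncaph2 with 0.49, Ncapg2 with 0.44 and Smc2 with 0.33 were positive but did not pass. Ncapd3 (0.04), Smc4 (-0.15), Smc5 (-0.25) and Smc6 (-0.45, exact permutation p = 0.213) did not pass either, and without Smc3/Bcl6 tumor 4 r was -0.05 for Smc5 and -0.03 for Smc6. Of the SMC5/6 partners, Nsmce4a had an r of 0.78 (exact permutation p = 0.00746, adjusted 0.318), Nsmce1 of 0.56, Nsmce2 of 0.52 and Ndnl2 of 0.17. Ankrd32 had -0.36 and Fam178a -0.49.

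**Figure D3:**
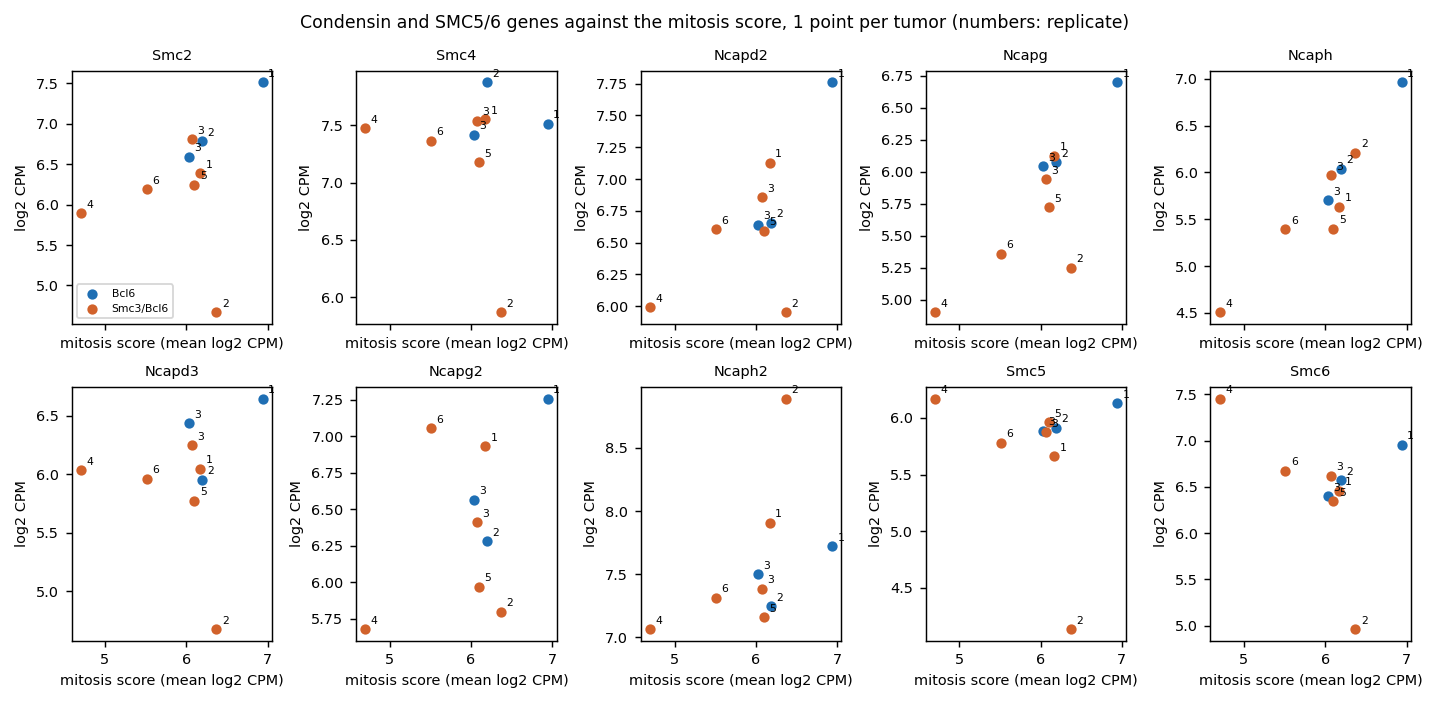
Log2 CPM (y axis) against the mitosis score (x axis, mean log2 CPM of 20 mitosis genes) for each condensin and SMC5/6 gene, 1 point per tumor (blue Bcl6, orange Smc3/Bcl6, numbered by replicate). Ncaph rises along the score in both genotypes (r = 0.94), Smc3/Bcl6 tumor 2 lies under the other tumors for Smc2, Smc4, Ncapd3, Smc5 and Smc6, and Smc6 is highest in Smc3/Bcl6 tumor 4, where the score is 4.70.

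How far each relation rested on single tumors differed between members. For Ncaph r was 0.91 within the 6 Smc3/Bcl6 tumors (exact permutation p = 0.00972), 0.93 within the 7 tumors labelled lymph node (exact permutation p = 0.00278), and from 0.89 to 0.97 when each tumor was left out in turn. The 2 mesenteric lymph node tumors were too few for a value of their own. Without Smc3/Bcl6 tumor 4 and Bcl6 tumor 1, the tumors farthest from the median score, Ncaph still had an r of 0.69 over 7 tumors, but it no longer passed (exact permutation p = 0.0556). For Ncapg the same 7 tumors gave 0.23, for Ncapd2 -0.25 and for Smc2 -0.32. The relation of Ncapg thus no longer held without the extreme tumors, and the 7 include Smc3/Bcl6 tumor 2, in which Smc2 and Ncapd2 were lowest at a score of 6.37. Ncapg2 turned from 0.44 to -0.71 (exact permutation p = 0.049) in this set. Without Smc3/Bcl6 tumor 4 alone, r of Ncapg was 0.65 (exact permutation p = 0.0754). Within the tumors labelled lymph node it was 0.68 (exact permutation p = 0.0687).

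Leaving out Smc3/Bcl6 tumor 2 brought the core subunit Smc2 and Ncapd2 to the other condensin I genes. Over the remaining 8 tumors r was 0.97 for Ncapg, 0.94 for Ncaph, 0.90 for Ncapd2 and 0.87 for Smc2, with exact permutation p of 0.000992, 0.00603, 0.00804 and 0.00918 (adjusted 0.0611, 0.112, 0.125 and 0.132). These 4 of 10 members compare with 12.3% of all genes in the same 8 tumors. Smc4 stood at 0.18, Smc5 at -0.13 and Smc6 at -0.52. In the same 8 tumors the cohesin gene Rad21 had an r of 0.87 (exact permutation p = 0.00131, adjusted 0.0661). For the rest of the ring r was 0.75 for Smc1a, 0.67 for Smc3, -0.25 for Stag1 and -0.59 for Stag2. The SMC5/6 partners had 0.78 (Nsmce4a), 0.74 (Nsmce1), 0.74 (Nsmce2), -0.06 (Ndnl2), -0.36 (Ankrd32) and -0.53 (Fam178a). When log2 CPM of all 9 tumors were corrected for exon length and GC content, Ncapg (0.96), Ncaph (0.94), Ncapd2 (0.79) and Ncapg2 (0.69) had an unadjusted exact p below 0.05, which is 4 of 10 against 7.37% of genes, whereas Smc2 stayed at 0.38. The correction left Smc2 in Smc3/Bcl6 tumor 2 at -1.33 of its deviation of -1.88, and Smc4 at -1.13 of -1.62, but Smc6 at only -0.23 of -1.72. With the replication score in place of the mitosis score, Ncaph had an r of 0.95 (exact permutation p = 0.000152, adjusted 0.0712) and Ncaph2 of 0.70 (exact permutation p = 0.0348, adjusted 0.296). These 2 of 10 compare with 10.7% of genes, and 0 members passed an adjusted p of 0.05 there, against 0.0285% of genes.

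**Figure D4:**
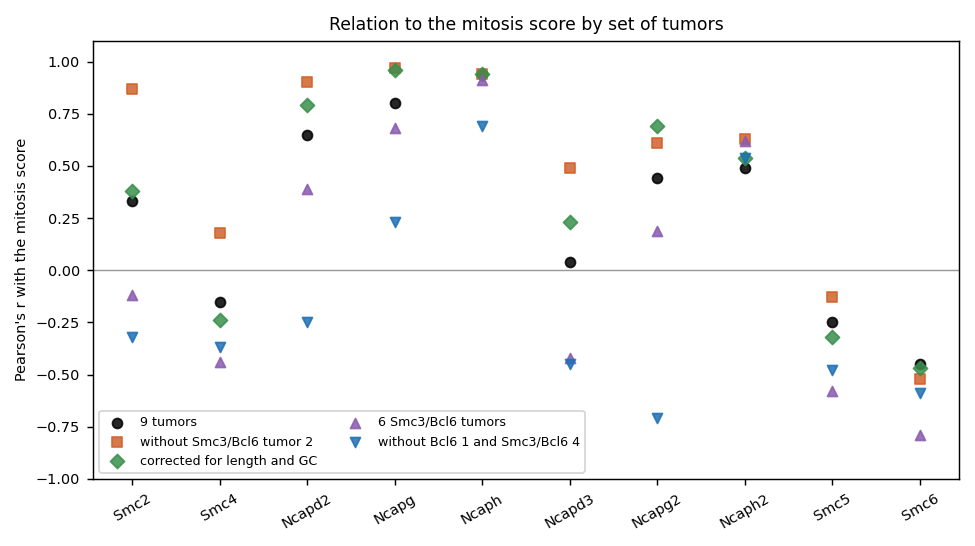
Pearson's r with the mitosis score (y axis) for each condensin and SMC5/6 gene over 9 tumors (circles), without Smc3/Bcl6 tumor 2 (squares), after correction for length and GC content (diamonds), within 6 Smc3/Bcl6 tumors (upward triangles) and without Bcl6 tumor 1 and Smc3/Bcl6 tumor 4 (downward triangles). Ncaph stays between 0.69 and 0.94 in all 5, Smc2 ranges from -0.32 to 0.87, and Smc5 and Smc6 are below 0 throughout.

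With the mitosis score as a covariate in edgeR, 0 members were called by genotype, against 1.8% of genes called lower. Ncaph then had a log2 fold change of -0.16 (SE 0.25, adjusted p = 0.96 in edgeR) instead of -0.73, Ncapg had -0.36 instead of -0.69, and Smc2 had -0.68 instead of -0.86. Smc6, by contrast, had -0.58 instead of -0.07. Conversely, with genotype in the model, log2 expression of Ncaph rose by 0.98 per unit of the score (SE 0.21, unadjusted p = 0.0011, adjusted p = 0.304 in edgeR), that of Ncapg had a slope of 0.59 (SE 0.23) and that of Smc6 of -0.63 (SE 0.32). No slope of a member passed an adjusted p of 0.05.

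Replicates 1 to 3 of both genotypes share numbers, and their deviations from the group means were positively correlated. In edgeR with a block for each pair of these 6 tumors, 1 member was called lower, against 1.9% of 13360 genes. That was Smc2, with a log2 fold change of -1.04 (SE 0.53, unadjusted p = 0.0932 and adjusted p = 0.983 in edgeR). The blocked values of Ncapg and Ncaph were -0.53 (SE 0.35) and -0.32 (SE 0.42), and neither was called. With both the block and the correction for length and GC content, 0 members were called, against 1.89% of genes called lower.

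The members also differed in how they varied with one another. As a description across the 8 tumors other than Smc3/Bcl6 tumor 2, Pearson's r of log2 CPM was 0.97 between Smc2 and Ncaph, 0.94 between Ncapg and Ncaph, and 0.90 between Ncapd2 and each of Ncapg and Ncaph. Smc4, which joins the same complexes, had an r of 0.38 with Smc2 and at most that with any other member. Smc5 and Smc6 had 0.72 with each other, and between -0.44 and 0.30 with the condensin genes. Over 9 tumors Smc2 and Smc4 had 0.83 and Smc5 and Smc6 0.92, values that include the deviation of Smc3/Bcl6 tumor 2 in all 4 genes. The points share library composition and depth.

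By the same measure over 9 tumors, the 5 genes most like Ncapg were Prr11 (0.978), Top2a and the mitotic kinesin Kif23 (both 0.964), Kif15 (0.957) and Gm6548 (0.951), and 4 of them had 0.96 or more without Smc3/Bcl6 tumor 2 as well. Those most like Ncaph2 were Samm50 (0.992), Ssr2 and Kdelr2 (both 0.988), and Bop1 and Ap2m1 (both 0.987), none of which is in the mitosis or replication list. Those most like Smc6 were Fcnaos (0.991), Akap8 (0.990), Nfx1 (0.988), Git2 (0.987) and Tmod3 (0.986). For Ncaph2 and Smc6, whose levels were extreme in Smc3/Bcl6 tumor 2, these values include that tumor, and without it they lay between 0.94 and 0.98 and between 0.95 and 0.97. The exons of the 4 named coding genes most like Smc6 had lengths of 8663, 8564, 17362 and 11151 bases, all above the median of 4091 bases.

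Compared per length of exon, the shared condensin subunit Smc4 and the condensin II kleisin had the highest levels. The median over 9 tumors, in CPM per kilobase, was 39.9 for Ncaph2 (range 31.9 to 113) and 34.1 for Smc4 (11.2 to 45). Next came Ncapd2 with 15.9, Smc2 with 15.3 and Ncaph with 12.1, and the remaining 5 lay between 7.61 for Smc6 and 8.72 for Smc5. Divided by the longest transcript instead, Ncaph2 (50.7) and Smc4 (41.2) still led, but the order behind them changed, with 21.6 for Ncapd2, 19.4 for Ncaph, 18.2 for Ncapg2, 17 for Smc6, 15.5 for both Ncapg and Smc2, 11.9 for Ncapd3 and 10.4 for Smc5. Ranges over tumors overlapped between neighbors throughout this order. Smc4 exceeded Smc2 per kilobase in 9 of 9 tumors, with a median ratio of 2.24 (1.05 to 3.15). This ratio was smallest in Bcl6 tumor 1 and largest in Smc3/Bcl6 tumor 4, the extremes of the mitosis score. The mean of the 3 condensin I subunits relative to that of the 3 condensin II subunits had a median ratio of 0.587 (0.266 to 1). Ncaph2 weighed most in it, with a median of 39.9 against 8.3 for Ncapd3 and 8.57 for Ncapg2. This ratio of means was highest in Bcl6 tumor 1 and lowest in Smc3/Bcl6 tumor 2, where Ncaph2 was high, and lay between 0.433 and 1 without the latter. The counterpart pairs differed in direction. Ncapd2 exceeded Ncapd3 in 9 of 9 tumors, with a median ratio of 2.04, and Ncaph was below Ncaph2 in all of them, with a median ratio of 0.281. Ncapg and Ncapg2 were close to each other, with a median ratio of 0.963 (0.433 to 1.22). Smc6 and Smc5 were close to each other, with a median ratio of 0.945 (0.709 to 1.32), but with the longest transcript in place of all exons it was 1.77, since the exon length of Smc6 depends on its annotated transcripts.

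**Figure D5:**
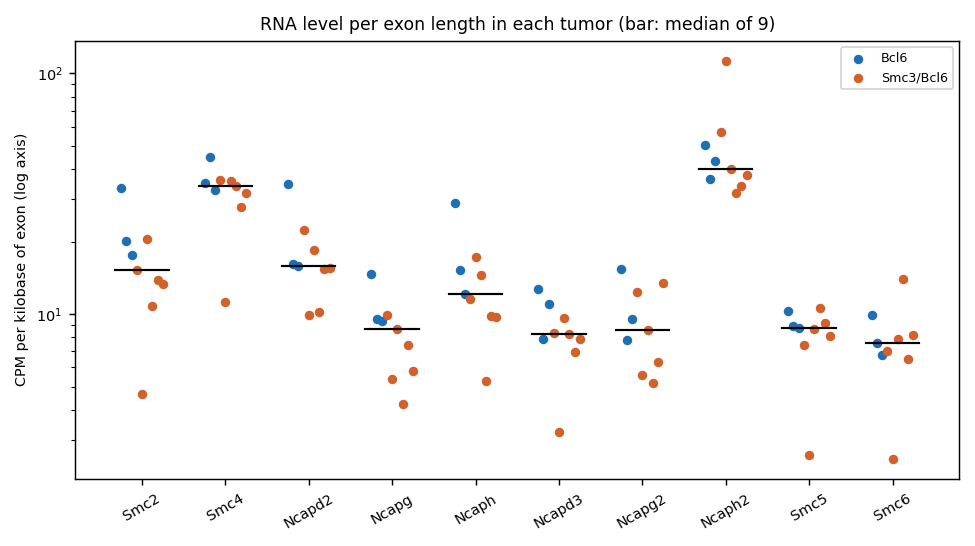
CPM per kilobase of exon (y axis, log scale) of each condensin and SMC5/6 gene, 1 point per tumor (blue Bcl6, orange Smc3/Bcl6) with the median of 9 tumors as a bar. Ncaph2 (median 39.9) and Smc4 (34.1) lie above the other 8 genes, whose medians lie between 7.61 and 15.9.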

How the data were processed

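The data were RNA-seq counts of 9 lymphomas, 3 of Bcl6 and 6 of Smc3/Bcl6 mice, whose genotype and replicate number came from the sample labels. The authors aligned reads to mm10 with STAR through the nf-core pipeline, counted them per gene with featureCounts on Gencode annotation, and deposited these raw counts. The strand setting is not given in the sources used here. Of its columns, 0 lacked a sample. GENCODE M21 (GRCm38) held 97.9% of the gene identifiers and was used for positions, lengths and GC content. The submitters' processing notes name R 4.0.2 and DESeq2 1.28.1.

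For the genotype comparison, counts were filtered by genotype, scaled by TMM and fitted without covariates by the quasi-likelihood method of edgeR 4.0.16 (R 4.3.3), with p adjusted by Benjamini-Hochberg over all tested genes. Log2 CPM used a prior count of 2. Relations to the mitosis score were tested by exact permutation of Pearson's r over all orders of the tumors, adjusted over all genes outside the score. Scripts were tested on simulated data. Alternatives were DESeq2 1.42.0, tumor quality weights in limma 3.58.1, other scalings, filters and thresholds, covariates, an offset for exon length and GC content (lowess span 0.3), the replicate number as a block, other scores, and each tumor left out in turn. Replicates 1 to 3 were treated as pairs in that block because deviations of same-numbered tumors had correlations of 0.471, 0.13 and 0.181. For pairing itself, the labels give only the shared number. The correlation of 0.471 is that of replicate 1, whose tumors are also those labelled mesenteric lymph node. No 2 libraries were copies of each other, since at most 1.71% of their counts were identical. The p-values measure the spread between these tumors.

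The genes named are the 10 members, their partners, the cohesin ring, those of the mitosis and replication lists past the thresholds or with the highest or lowest log2 fold change, and the 5 tested genes most like Ncapg, Ncaph2 and Smc6. The members and lists were chosen with earlier results of these data known. Promoter sequences are from RefSeq.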

Additional observations from a re-analysis of the deposited data

Results flagged for a closer look

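In 8 of 28 measures examined (log2 CPM of the members, their partners and Smc3, and the scores and ratios), 1 of the 6 Smc3/Bcl6 tumors stood apart from the other 5, in that the distance to the closest of them, as a share of the range of all 6, exceeded Dixon's 95% critical value. Chance gives such a gap in about 1 in 20 groups, and genes of 1 library are not independent of each other. In all 8 the tumor was Smc3/Bcl6 tumor 2. Among the members the gap was 0.78 of the range for Smc4, 0.697 for Ncapd3 and 0.75 for Smc5, each with this tumor lowest. Among the partners it was 0.66 for Ankrd32 and 0.661 for Fam178a, also lowest, whereas Nsmce2 (0.787) and Ndnl2 (0.683) were highest in this tumor. Smc3 had the widest gap, 0.847, and was lowest.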

How the results depend on the processing

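The number of members called lower by genotype was 3, 2 with DESeq2 or RLE scaling (without Ncaph), and 1 with the length and GC content offset, limma with quality weights, the replicate block, the tissue label as a covariate or an unadjusted p below 0.05. It was 0 with the mitosis score as a covariate or with the block and the offset together, and from 0 to 3 when each tumor was left out in turn (0 without Bcl6 tumor 1). The causes were not tested. Genes called lower made up 0.868% of those tested in the main fit, 0.719% with DESeq2 and 0.761% with RLE scaling. They made up 0.797% with the offset, 7.13% with limma, 1.9% with the block and 1.37% with the tissue label. The share was 1.8% with the mitosis score, 1.89% with block and offset together, and 1.64% without Bcl6 tumor 1. In the main fit 0.562% of genes had an unadjusted p below 0.05 in edgeR. Against the main fit, the block kept the call of Smc2 and lost those of Ncapg and Ncaph. It holds only replicates 1 to 3 of each genotype. The median log2 fold change of the members ranged from -0.61 to -0.29 over the fits without 1 tumor, and 9 of 10 members kept a negative value with DESeq2 and with RLE scaling. With limma and quality weights the median was -0.17, and 7 of 10 members were negative. With the block and the offset together it was -0.26, and 8 of 10 were negative.

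Signs of small log2 fold changes turned for Ncapg2 with limma (0.10) and with the block and offset (0.05), for Smc6 with limma (0.03), without Bcl6 tumor 1 (0.04) and without Smc3/Bcl6 tumor 2 (0.13), and for Ncaph2 without the latter (-0.09). Without 1 tumor, values ranged from -0.54 to -0.09 for Ncapg2, from -0.33 to 0.13 for Smc6 and from -0.09 to 0.37 for Ncaph2. Those of the correlation with the mitosis score turned for Smc4 with Spearman's rho (0.15), without Smc3/Bcl6 tumor 2 (0.18) and also with correction (0.07), and for Ncapd3 with rho (-0.07), the replication score (-0.04), Smc3/Bcl6 tumors only (-0.42), tumors labelled lymph node (-0.33) and without Bcl6 tumor 1 (-0.30). Without 1 tumor the correlation ranged from -0.28 to 0.18 for Smc4 and from -0.30 to 0.49 for Ncapd3. Smc2 turned in Smc3/Bcl6 tumors only (-0.12) and in tumors labelled lymph node (-0.01). Without the 2 tumors farthest from the median score the median r of the members was -0.35 in place of 0.38, with -0.32 for Smc2, -0.25 for Ncapd2, -0.45 for Ncapd3 and -0.71 for Ncapg2. The median r was 0.10 to 0.62 without 1 tumor, and 0 members passed the adjusted threshold in any of these fits. The condensin I to II ratio was 0.574 to 0.64. The score without Bub1b, the tumors labelled lymph node and the correction without Smc3/Bcl6 tumor 2 were chosen after the data had been seen.

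With 3 tumors against 6, the exact test of genotype has only 84 splits of the tumors. The 95% interval of the member measured most closely, Ncapg, still reached from -1.37 to -0.02. Small differences were thus not detectable with this number of tumors.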
